A study of Rattus norvegicus with 48 samples.

Results

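The miR-181 microRNAs (miRNAs) were followed in the amygdala and ventral striatum of adolescent Long Evans rats. Members were taken by name from the deposited table, and lines that shared a name were added up. This gave 10 of the 1063 names in the table. Of these, 5 were mature miRNAs, miR-181a-5p, miR-181b-5p, miR-181c-5p, miR-181d-5p and miR-181a-1-3p. The other 5 were precursor names, written with a small r: mir-181a-1, mir-181a-2, mir-181b-1, mir-181b-2 and mir-181c. All animals were killed on postnatal day 42. Before birth they had been exposed to ethanol or, as controls, to saline through injection of the dam. After weaning they were either socially-enriched, that is housed with unfamiliar rats of the same sex, or non-enriched, that is housed with littermates. Females and males were kept apart, which gave 8 groups of 6 libraries by region, exposure and housing, each with 3 female and 3 male libraries, 48 in all. Each library was made from pooled RNA of several rats, so the spread between libraries is a spread between pools.

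A miRNA is cut from a hairpin precursor, and one or both arms of the hairpin can persist as a mature strand that pairs with messenger RNAs, mainly through the seed near its 5′ end. The miR-181 family is conserved among vertebrates and was first studied in lymphocytes, where it tunes T cell receptor signalling. In the brain miR-181a is abundant, and in neurons of the nucleus accumbens, a part of the ventral striatum, it has been tied to dopamine, to psychostimulants and to glutamate receptor subunits.

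The 5p strands are printed because names that differ by so few bases bear on how reads were assigned, and capitals mark the seed (bases 2 to 8). Sequences are those of RefSeq for the rat build GRCr8.
miR-181a-5p: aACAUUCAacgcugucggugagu
miR-181b-5p: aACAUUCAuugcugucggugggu
miR-181c-5p: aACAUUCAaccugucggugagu
miR-181d-5p: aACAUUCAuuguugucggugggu
miR-181a-1-3p: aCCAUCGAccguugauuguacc
miR-181c-3p: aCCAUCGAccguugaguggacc
The 4 strands of the 5p arm carried the same seed, ACAUUCA, and were the only ones to carry it among 693 mature names of the RefSeq table (0.577%). Counted from 1 at the 5′ end, miR-181b-5p differed from miR-181a-5p by A9U, C10U and A21G. From miR-181b-5p to miR-181d-5p there was a single substitution, C12U. miR-181c-5p had the bases of miR-181a-5p without the G at position 11. The 3p strand miR-181a-1-3p had another seed, CCAUCGA, shared with miR-181c-3p, which differed from it by U16G and U19G.

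Hairpins are shown for the precursor names that the RefSeq table held, with the stretches that match a mature strand in capitals. In mir-181b-2 this is the match to miR-181b-5p, a strand that RefSeq listed for Mir181b1 only.
mir-181a-2: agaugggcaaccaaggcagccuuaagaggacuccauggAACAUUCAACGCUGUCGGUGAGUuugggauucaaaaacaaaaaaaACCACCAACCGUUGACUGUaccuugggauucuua
mir-181b-2: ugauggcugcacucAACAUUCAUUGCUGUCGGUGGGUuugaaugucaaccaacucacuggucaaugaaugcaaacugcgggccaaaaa
mir-181c: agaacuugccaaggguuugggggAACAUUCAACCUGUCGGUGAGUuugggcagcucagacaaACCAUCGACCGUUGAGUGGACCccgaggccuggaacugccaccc
The genes lay in pairs. Mir181a-1 was annotated with Mir181b1 on a chromosome, Mir181a2 with Mir181b2 inside the protein-coding gene Nr6a1 on another, and Mir181c with Mir181d on another again. miR-181a-5p is thus encoded by 2 hairpins with the same mature strand, and a read of that strand alone cannot say which hairpin it came from.

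Abundance was given as RPM, a read count scaled so that the mature names of a library add up to 1000000 and so do the precursor names. The lowest values shared by many names gave the worth of 1 read, and from it between 363135 and 1370407 mature reads a library, with a median of 977825.5. The 8 libraries with the fewest reads were all from amygdala (363135 to 622123). miR-181a-5p rested on at least 52369 reads in every library, miR-181c-5p on 2752, miR-181b-5p on 1597 and miR-181d-5p on 348. For miR-181a-1-3p the fewest were 44.5, where counting alone gives a coefficient of variation of 14.99%. These errors cover counting only. Neuronal miRNAs (6 of 6 listed names found) added up to between 29384 and 58119 RPM in every library, as for brain tissue. Names of choroid plexus and ciliated cells, 6 of 6 found, ran from 3378 to 136669 RPM in amygdala and from 4061 to 11438 RPM in ventral striatum. In 13 amygdala libraries their sum was above that of the highest ventral striatum library. Names of red blood cells (3 of 4 found) and of muscle (4 of 4) stayed at or below 56.9 and 19.6 RPM.

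miR-181a-5p had the highest mean of all mature miRNAs, 162367 ± 23577 RPM (SD, n = 48), ahead of miR-127-3p with a mean of 142367 RPM and miR-26a-5p with 67613 RPM. It ranked first in 17 of 24 amygdala and in 19 of 24 ventral striatum libraries, and miR-127-3p ranked first in the remaining 12. The place of miR-181a-5p above miR-127-3p was therefore not constant across pools, and it was no trait of the striatum alone.

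The other mature members were far less abundant. By mean RPM over all libraries miR-181c-5p ranked 23, miR-181b-5p 32, miR-181d-5p 86 and miR-181a-1-3p 167 of 612 mature names. In amygdala the lowest, median and highest libraries for miR-181c-5p were at 6431, 8246 and 10446 RPM, and in ventral striatum at 7561, 9229 and 10730 RPM. For miR-181b-5p the same values were 3543, 4583 and 7386 RPM in amygdala and 3430, 5536 and 7745 RPM in ventral striatum. Within a library miR-181a-5p was above miR-181c-5p in all 48, by a median of 18.5 times, with a range from 11.4 to 32.9. miR-181c-5p was above miR-181b-5p in 46 of 48 libraries (median 1.77 times, lowest 0.871), so these neighbours in the order were not fully separated.

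miR-181d-5p was at 716, 951 and 1100 RPM in amygdala (lowest, median and highest) and at 697, 908 and 1201 RPM in ventral striatum. It lay below miR-181b-5p in all 48 libraries, by a median of 5.46 times, although the strands differ at 1 base. The scarcest member, the 3p strand miR-181a-1-3p, was at 93.3, 131 and 214 RPM in amygdala and at 116, 153 and 191 RPM in ventral striatum. miR-181a-5p exceeded this strand by a median of 1166 times in amygdala and 1106 times in ventral striatum. As miR-181a-5p comes from both mir-181a hairpins and miR-181a-1-3p from mir-181a-1 only, this is not the ratio of the arms of a single hairpin.

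**Figure D1:**
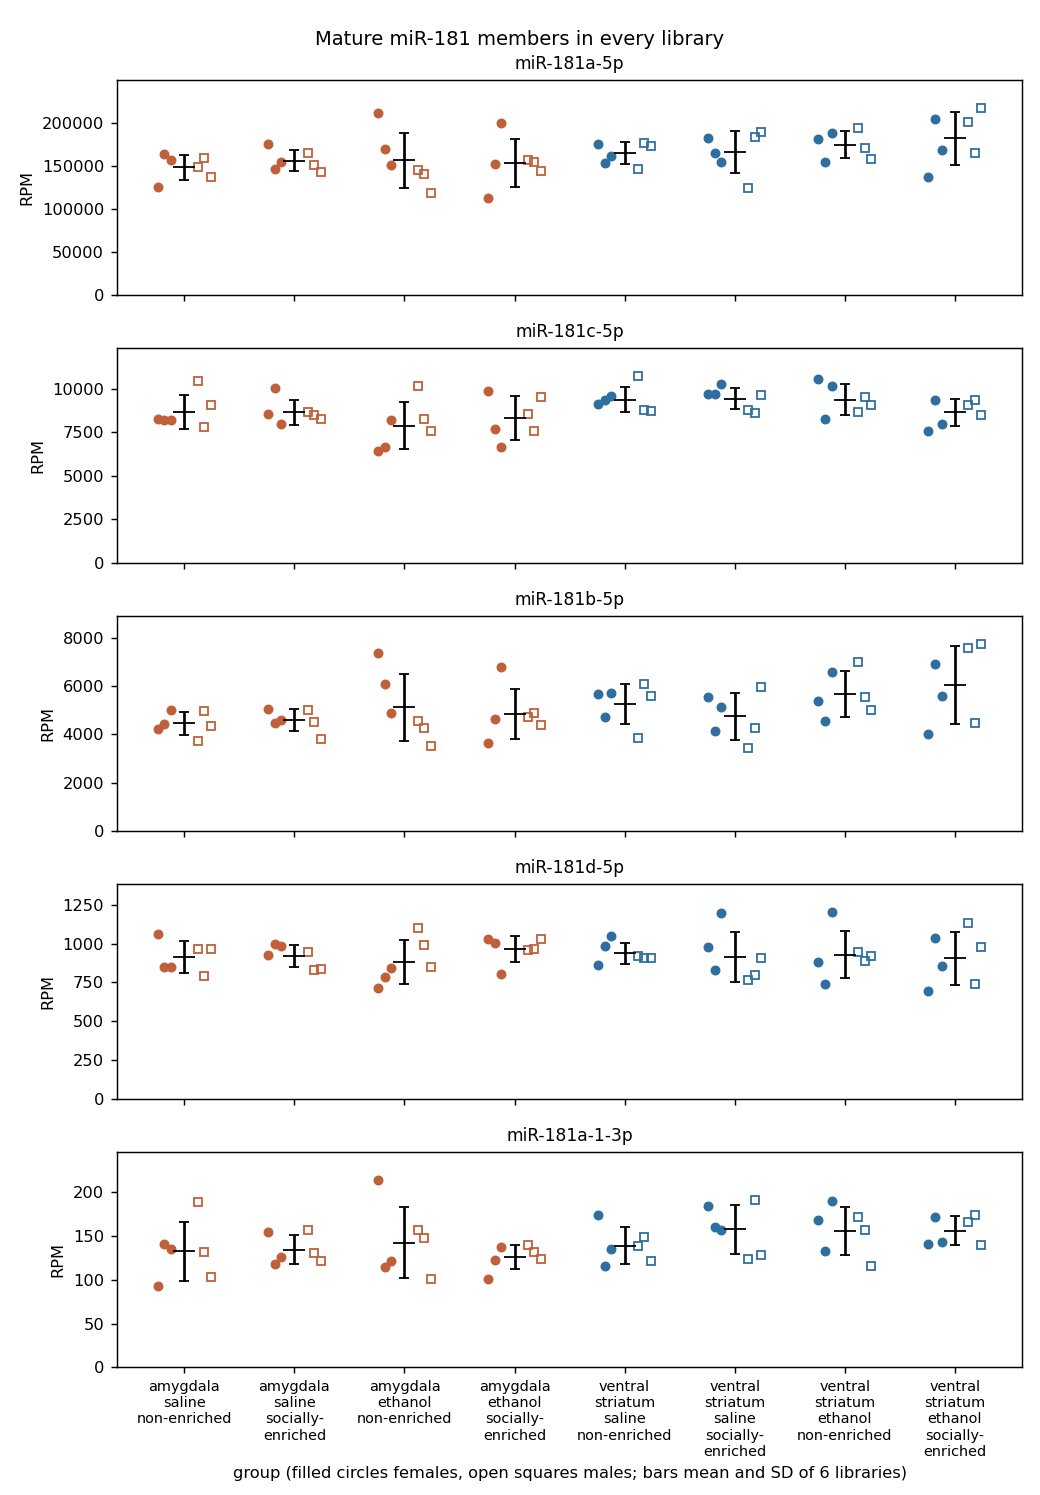
RPM (linear axes from 0) of the 5 mature members in each of the 48 libraries, by group, with filled circles for females, open squares for males, and bars for the mean and SD of 6 libraries. miR-181a-5p lies between 112316 and 217165 RPM and miR-181a-1-3p between 93.3 and 214 RPM, and in every panel the amygdala and ventral striatum libraries overlap.

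miR-181a-5p took 11.2%, 15.1% and 21.1% of the mature RPM in amygdala (lowest, median and highest library) and 12.4%, 17.2% and 21.7% in ventral striatum. The ranges overlapped over most of their length. The mean share was 15.3% ± 2.19 in amygdala and 17.2% ± 2.19 in ventral striatum (SD, n = 24 each), a difference of 1.85 percentage points (two-sided permutation test of library means, p = 0.00588). All mature miR-181 names together took 16.8% ± 2.21 and 18.7% ± 2.30. Within that family total miR-181a-5p made up between 88.3% and 93.4% in every library, so the family share was in large part the share of this strand.

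Lines that shared a name showed how the reads of miR-181a-5p had been divided. The name stood on 2 lines, the first listed beside the 3p strand of mir-181a-1 and the second beside that of mir-181a-2. The first line held between 33.4% and 43.7% of the RPM of miR-181a-5p, and libraries fell into narrow bands. In amygdala 16 libraries had a share of 33.7% to 34.3% and 8 had 40.5% to 41.0%. In ventral striatum 8 libraries had 33.4% to 33.7%, 8 had 40.7% to 41.1% and 8 had 43.5% to 43.7%. Each band of 8 held 1 library of every combination of sex, exposure and housing, and the band of 16 held 2. The 8 amygdala libraries in the upper band were the 8 with the fewest reads. The bands therefore did not follow exposure, housing or sex, while the highest band held ventral striatum libraries only.

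The 2 lines of miR-181b-5p were divided in nearly the same way, between 32.1% and 44.3% on the first line (Pearson r = 0.98 between the shares of miR-181a-5p and miR-181b-5p over the 48 libraries, a description of points that share libraries). The share of mir-181a-1 in the sum of mir-181a-1 and mir-181a-2 differed from the line share of miR-181a-5p by at most 0.163 percentage points in any library. Values of the precursor names thus repeated the division of the mature lines. The summed RPM of miR-181a-5p was only weakly related to the line share (r = 0.21, n = 48). The paper states that libraries were multiplexed in sets of 8 for sequencing, but the labels do not give the sets or dates. Whether a band is such a set cannot be told, so region and sequencing set may be confounded. The cause of the bands was not tested.

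**Figure D2:**
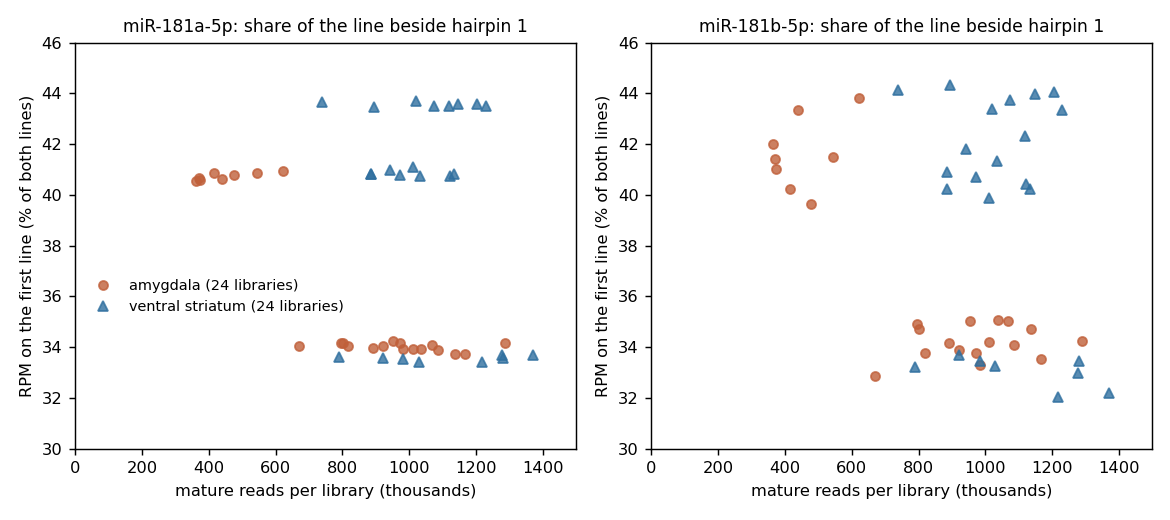
Share of the RPM on the first of both lines, in percent (axis from 30 to 46), against mature reads per library (axis in units of 1000 reads), for miR-181a-5p on the left and miR-181b-5p on the right, 1 point per library. The libraries form flat bands near 34%, 41% and, in ventral striatum only, 43.5% to 43.7% for miR-181a-5p.

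For mir-181a and mir-181b precursor values also followed mature values closely in size. The sum of mir-181a-1 and mir-181a-2 over miR-181a-5p was 0.887 ± 0.00506 in amygdala and 0.877 ± 0.00819 in ventral striatum (mean ± SD, n = 24 each, mature and precursor names being scaled apart). For mir-181b this quotient was 1.12 ± 0.0153 and 1.11 ± 0.0186, while for mir-181c it was 1.84 ± 0.0888 and 1.69 ± 0.0799. The quotient of mir-181c stood above the others. Its hairpin is also the source of miR-181c-3p, which was at only 115 to 255 RPM, beside 6431 to 10730 RPM of miR-181c-5p. The cause of the higher quotient was not tested. Whether a read counted for a precursor name was a mature strand or a longer hairpin cannot be told from the table.

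Of the 10 members, 4 were higher in ventral striatum than in amygdala after adjustment over all 968 names tested, and none was lower (limma, adjusted p under 0.05). They were miR-181a-5p, miR-181c-5p, mir-181a-1 and mir-181b-1. Of all names tested, 28.5% differed between the regions in either direction and 20.4% were higher in ventral striatum, and the count of members is to be read against these shares. The 4 names are also not independent, since the mir-181a precursor values repeated those of miR-181a-5p. The difference of miR-181c-5p was not repeated by its precursor mir-181c (log2 fold change 0.015, limma, adjusted p = 0.827). At an unadjusted p under 0.05 there were 6 members, all higher in ventral striatum, beside 378 of all 968 names in either direction and 265 (27.4%) higher. Over the members the median log2 fold change was 0.15, and over all names 0.076.

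miR-181a-5p was at 112316, 151479 and 211478 RPM in amygdala (lowest, median and highest of 24) and at 123914, 172145 and 217165 RPM in ventral striatum. Of the ventral striatum libraries, 21 of 24 were above the amygdala median, but the ranges overlapped. The fitted difference on the log2(RPM + 1) scale was 0.17 ± 0.060 (SE), or 1.12-fold, with an adjusted p of 0.0364 (limma). For miR-181c-5p, given above by region, the log2 fold change was 0.14 ± 0.044, 1.10-fold, with an adjusted p of 0.0154, and 22 of 24 ventral striatum libraries lay above the amygdala median. Differences of this size are smaller than the range within either region.

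The remaining mature members did not pass. miR-181b-5p had a log2 fold change of 0.18 ± 0.081 (adjusted p = 0.0848) and miR-181a-1-3p of 0.19 ± 0.080 (adjusted p = 0.0673), values at least as large as that of miR-181a-5p with wider errors. Both regions were dissected from the same rats, and consecutive library numbers join a ventral striatum and an amygdala library of the same sex and treatment, although the labels do not say that they hold the same animals. With these numbers as a block 6 members were called, miR-181b-5p (adjusted p = 0.0485) and miR-181a-1-3p (adjusted p = 0.0439) among them. The share of all names called was not counted for that fit, so the rise in members cannot be read against it. miR-181d-5p did not pass in the main fit. Its log2 fold change there was -0.0036 ± 0.054 (limma, adjusted p = 0.985, 95% interval -0.11 to 0.11). The strand that differs from miR-181b-5p at C12U thus had a central value near 0, although the difference between their fold changes is tested only as a ratio, given below.

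Among precursor names mir-181a-1 had lowest, median and highest values of 33910, 48525 and 64582 RPM in amygdala and of 36194, 59704 and 78830 RPM in ventral striatum. Its log2 fold change was 0.26 ± 0.082 (1.20-fold, adjusted p = 0.0156). mir-181b-1, its neighbour in the genome, had 0.27 ± 0.10 (1.20-fold, adjusted p = 0.0469). Both stand on the hairpin 1 side of the line division, and the hairpin 2 names were not called: mir-181a-2 had 0.076 ± 0.066 (adjusted p = 0.425) and mir-181b-2 0.11 ± 0.081 (adjusted p = 0.317). When the hairpins of each strand were added together, neither passed, at 0.15 ± 0.061 for mir-181a (adjusted p = 0.0675) and 0.17 ± 0.079 for mir-181b (adjusted p = 0.0977). mir-181c was at 0.015 ± 0.039 (adjusted p = 0.827).

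Region and line share were partly confounded, since the band at 43.5% to 43.7% held ventral striatum only. Within the band near 34% the line shares of the regions did not overlap either, with amygdala from 33.74% and ventral striatum up to 33.68%. In the band near 34% (16 amygdala and 8 ventral striatum libraries) none of the 10 members passed, none had an unadjusted p under 0.05, and miR-181a-5p was at 0.11 ± 0.11 (limma, adjusted p = 0.664). In the band near 41% (8 and 8 libraries) the fit had a mean for each region only, unlike the fit near 34%. There 1 passed, miR-181c-5p at 0.18 ± 0.053 (adjusted p = 0.0233), and miR-181a-5p was at 0.19 ± 0.078 (adjusted p = 0.112). Without the 8 amygdala libraries of fewest reads mir-181a-1 and mir-181b-1 passed while miR-181a-5p (0.16, adjusted p = 0.129) and miR-181c-5p (0.098, adjusted p = 0.177) did not. In these fits the share of all names called was not counted.

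Scaling mattered as well. After median-ratio rescaling of the libraries none of the 10 members passed, beside 225 of all 968 names, with miR-181a-5p at 0.10 ± 0.073 (adjusted p = 0.323) and miR-181c-5p at 0.077 ± 0.035 (adjusted p = 0.110), and 2 members had an unadjusted p under 0.05. Of all names called, 71.4% were higher in ventral striatum with the deposited RPM and 52% after the rescaling. Without the 13 amygdala libraries rich in choroid plexus names, the fit had a mean for each region and sex only. It gave miR-181a-5p at 0.21 ± 0.066 (adjusted p = 0.0218) and miR-181c-5p at 0.040 ± 0.051 (adjusted p = 0.644). The part of choroid plexus RNA in the difference of miR-181c-5p was not tested.

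Single pools counted too. Leaving out any 1 of 16 libraries left 2 members called, and miR-181a-5p then had an adjusted p of 0.0506 to 0.0589 (limma) with a log2 fold change of 0.14 to 0.16. In ventral striatum these were saline non-enriched female 1 and male 2, saline socially-enriched female 1, male 2 and male 3, ethanol non-enriched female 3 and male 1, and ethanol socially-enriched female 2 and male 3. In amygdala they were saline non-enriched female 1 and male 3, saline socially-enriched female 2 and male 3, ethanol non-enriched female 3 and male 3, and ethanol socially-enriched female 1. For mir-181b-1 the adjusted p rose above the threshold without any 1 of 28 libraries, to 0.0780 at most. miR-181c-5p and mir-181a-1 were called whichever library was left out.

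**Figure D3:**
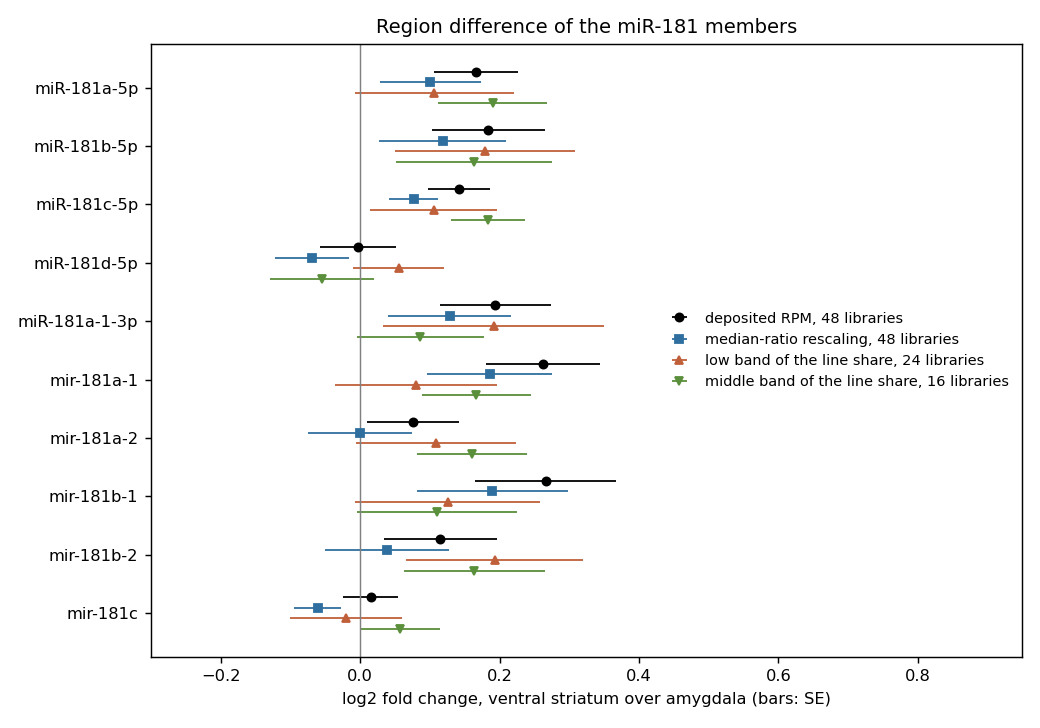
Fitted log2 fold change of each member, ventral striatum over amygdala, with bars for the SE, for the deposited RPM, after median-ratio rescaling, and within the low and the middle band of the line share. The fit within the middle band had a mean for each region only. miR-181a-5p lies above 0 in all 4 fits, from 0.10 to 0.19, and miR-181d-5p lies on either side of 0.

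Ratios between members of the same kind in the same library do not depend on the scaling. Of 10 ratios compared between the regions, 2 passed after Benjamini-Hochberg adjustment over the 10 (two-sided permutation tests). miR-181c-5p over miR-181d-5p, strands of neighbouring hairpins, had a median of 9.21 in amygdala (7.62 to 10.8) and 9.86 in ventral striatum (8.003 to 12.6), a log2 difference of 0.15 (p = 0.0023, adjusted p = 0.0230). The distributions overlapped, and the difference was 0.050 within the low band (adjusted p = 0.59) and 0.24 within the middle band (exact test, adjusted p = 0.0886). The other ratio was mir-181a-1 over mir-181a-2, with medians of 0.520 and 0.692 and a log2 difference of 0.19 (adjusted p = 0.0456). Within the low band it was -0.029 (permutation p = 1e-05, the smallest that the resampling can give, adjusted p = 0.0001) and within the middle band 0.0065 (exact p = 0.124). The bands were cut on the line share of miR-181a-5p, which this ratio repeats, so a value near 0 within a band was fixed in advance. The within-band values therefore say nothing on the size of the region difference over all libraries. Their sign was not fixed by the cut. In the low band every amygdala library had a higher line share of miR-181a-5p (33.74% or more) than every ventral striatum library (33.68% or less). This is opposite to the difference over all libraries. Whether it follows region or sequencing set cannot be told apart and was not tested. mir-181b-1 over mir-181b-2 had medians of 0.515 and 0.665 and a log2 difference of 0.15 over all libraries (adjusted p = 0.0874). Within the low band it was -0.067 (permutation test, adjusted p = 0.00225). The same limit holds for it, since the line shares of miR-181a-5p and miR-181b-5p moved together.

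The ratio of miR-181a-5p to miR-181b-5p, from hairpins that lie in pairs, had medians of 32.7 and 31.3, with a log2 difference of -0.017 (adjusted p = 0.854). miR-181a-5p over miR-181c-5p had medians of 18.4 and 18.6 (0.024, adjusted p = 0.861). miR-181a-5p over miR-181d-5p had medians of 162 and 195 (0.17, adjusted p = 0.0874), and miR-181b-5p over miR-181d-5p of 4.82 and 6.06 (0.19, adjusted p = 0.0874). No region difference was called in these ratios.

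Prenatal ethanol and housing were compared within each region in 4 contrasts: ethanol against saline in non-enriched and in socially-enriched rats, and socially-enriched against non-enriched in saline and in ethanol rats. None of the 80 tests of a member in a contrast passed after adjustment (limma), and none had an unadjusted p under 0.05, the lowest being 0.0780. Among all names the share called was 0% in each of the 8 contrasts, of 910 names in amygdala and 933 in ventral striatum, and between 1.82% and 4.51% of them had an unadjusted p under 0.05.

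In amygdala miR-181a-5p was at 124748, 152080 and 163390 RPM in the saline non-enriched group (lowest, median and highest of 6) and at 142286, 152280 and 174586 RPM in the saline socially-enriched group. The ethanol non-enriched group had 118599, 148124 and 211478 RPM, and the ethanol socially-enriched group 112316, 153123 and 199524 RPM. The 4 medians lay within the range of every group. Both the lowest and the highest amygdala library were from ethanol groups, whose SDs were 31703 and 27982 RPM beside 14883 and 12155 RPM in the saline groups. This difference in spread was not tested.

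In ventral striatum the saline non-enriched group was at 145568, 167419 and 176246 RPM and the saline socially-enriched group at 123914, 173089 and 189618 RPM. The ethanol non-enriched group was at 154512, 175752 and 193795 RPM, and the ethanol socially-enriched group at 136322, 184170 and 217165 RPM. Each group overlapped every other. Ethanol against saline gave a log2 fold change of 0.084 (95% interval -0.17 to 0.34) in non-enriched and 0.13 (-0.13 to 0.38) in socially-enriched ventral striatum, and of 0.059 (-0.20 to 0.32) and -0.039 (-0.30 to 0.22) in amygdala. Housing gave 0.0053 (-0.25 to 0.26) in saline and 0.047 (-0.21 to 0.30) in ethanol ventral striatum, and 0.075 (-0.18 to 0.33) and -0.024 (-0.28 to 0.23) in amygdala. With 6 pools a group, changes of miR-181a-5p anywhere inside these intervals remain compatible with the data.

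The lowest p among the members was that of miR-181c-5p in socially-enriched ventral striatum. It was at 7561, 8778 and 9369 RPM in the ethanol group (lowest, median and highest) and at 8629, 9646 and 10247 RPM in the saline group, with means of 8636 ± 755 and 9433 ± 621 RPM (SD, n = 6 each). The groups overlapped, the log2 fold change was -0.13 ± 0.069 (limma, unadjusted p = 0.0780, adjusted p = 1) and the two-sided exact permutation test of the means gave p = 0.0725. In the same contrast miR-181b-5p had means of 6055 ± 1605 and 4746 ± 955 RPM, with an exact p of 0.117 and a log2 fold change of 0.33 (95% interval -0.054 to 0.72), the largest among the 80. Exact tests of 6 against 6 were under 0.05 for none of the 80, and in no contrast did the groups of a member stand clear of each other. The smallest p such a test can give is 0.00216. Exact tests and overlap were worked out for the members only, so no share over all names stands beside these counts.

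**Figure D4:**
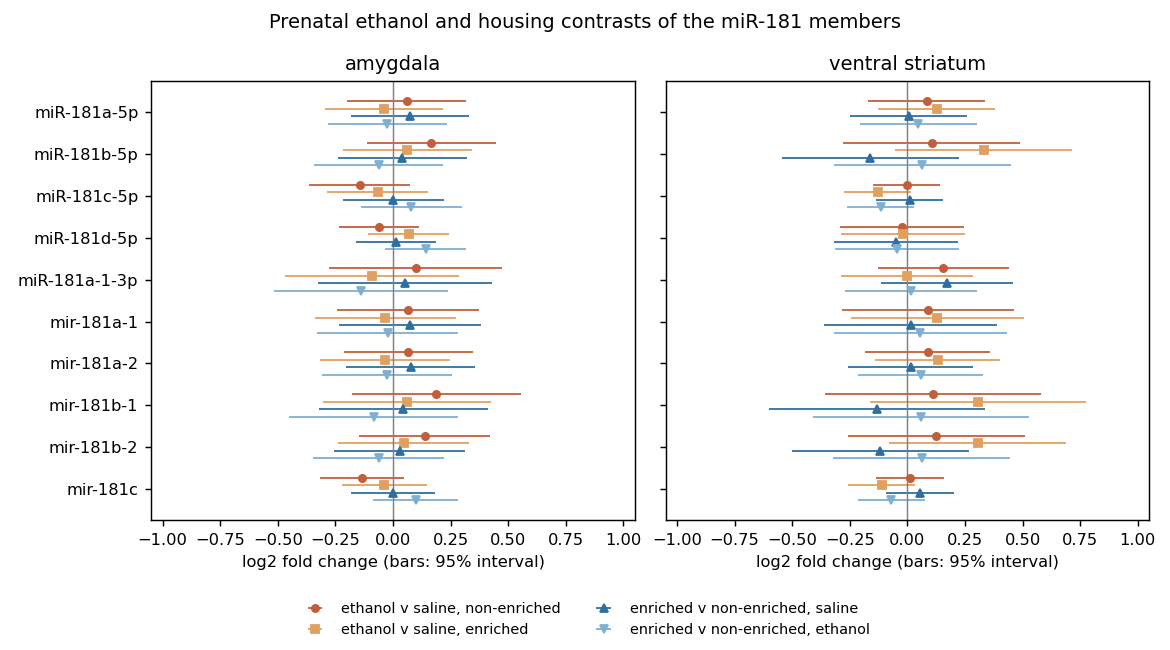
Log2 fold change of each member with its 95% interval for the 4 contrasts of exposure and housing, amygdala on the left and ventral striatum on the right. All 80 intervals include 0, and the central values run from -0.16 to 0.33.

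Sex and the differences between contrasts were tested in the same way. Females against males gave 0 of 20 member tests past the threshold (limma), 0 at an unadjusted p under 0.05, beside 0% of all names in either region, of which 4.18% in amygdala and 2.89% in ventral striatum had an unadjusted p under 0.05. The lowest p was for miR-181b-5p in amygdala, with a log2 difference of 0.19 (limma, unadjusted p = 0.0569, adjusted p = 0.988). Whether a contrast differed between the regions was tested 40 times, with 0 members past either threshold (limma, lowest unadjusted p = 0.127) and 0% of all 968 names. Whether housing altered the effect of ethanol was tested 20 times, again with 0 members past either threshold (limma, lowest unadjusted p = 0.215) and 0% of all names called.

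Across libraries the members did not move as a unit. On the log2(RPM + 1) scale over the 48 libraries, miR-181a-5p had a Pearson r of 0.89 with miR-181b-5p and 0.66 with miR-181a-1-3p, but -0.088 with miR-181c-5p and -0.015 with miR-181d-5p. miR-181c-5p and miR-181d-5p, from neighbouring hairpins, had r = 0.53. These are descriptions of libraries that share scaling, and since miR-181a-5p alone holds a large part of the sum, a rise in it lowers the RPM of other names by arithmetic. After subtraction of the mean of each of the 16 combinations of region, sex, exposure and housing, r was 0.87 with miR-181b-5p and -0.24 with miR-181c-5p.

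Outside the family, 177 mature names of at least 100 RPM on average were ranked by their likeness to miR-181a-5p. The 5 with the highest r over the 48 libraries were miR-219a-2-3p (0.85), miR-93-5p (0.80), miR-338-5p (0.79), miR-338-3p (0.79) and miR-21-5p (0.75), against a median of -0.14 over all 177. miR-219a and miR-338 are known as miRNAs of oligodendrocytes, where they promote maturation and myelination. The lowest were miR-137-3p (-0.66), miR-344b-1-3p (-0.57) and miR-128-3p (-0.57), of which miR-137 and miR-128 are known as neuronal miRNAs. With the 16 means subtracted the same 5 names were highest, from 0.71 for miR-21-5p to 0.80 for miR-219a-2-3p, and the lowest were miR-344b-1-3p (-0.60), miR-412-5p (-0.59) and miR-137-3p (-0.59).

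The list of oligodendrocyte miRNAs (miR-219a-5p, miR-219a-2-3p and miR-338-3p, 3 of 3 found) added up to 4671, 7089 and 15452 RPM in amygdala (lowest, median and highest) and to 6218, 10324 and 15920 RPM in ventral striatum. All 3 were higher in ventral striatum, with log2 fold changes of 0.49 for miR-219a-5p (limma, adjusted p = 0.0280), 0.59 for miR-219a-2-3p (0.000318) and 0.44 for miR-338-3p (0.00380), each larger than that of miR-181a-5p. In bulk tissue, fewer cells of a type and less RNA per cell cannot be told apart. The part of oligodendrocyte RNA in the region difference of miR-181a-5p was not tested.

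miR-338-3p made up most of the oligodendrocyte sum, with medians of 6203 RPM in amygdala and 8783 RPM in ventral striatum. Within amygdala the log2 oligodendrocyte sum had r = 0.84 and rho = 0.80 with log2 miR-181a-5p (n = 24), and r = 0.72 without the 2 libraries farthest from the median sum. Within ventral striatum r was 0.67 and rho 0.65, and r was 0.77 without the 2 farthest. For miR-181b-5p r was 0.86 in amygdala and 0.81 in ventral striatum. miR-181c-5p behaved otherwise, with r = -0.47 in amygdala, which was -0.15 without the 2 farthest libraries, and 0.084 in ventral striatum. In amygdala its relation to the choroid plexus and ciliated cell sum was stronger (r = -0.60 and rho = -0.49, n = 24, and r = -0.50 without the 2 farthest), and with the neuronal sum r was 0.55 (0.31 without the 2 farthest). In ventral striatum the choroid plexus sum had r = 0.30 with miR-181c-5p (0.011 without the 2 farthest). With the neuronal sum miR-181a-5p had r = -0.34 in amygdala (-0.14 without the 2 farthest) and -0.52 in ventral striatum (-0.57 without the 2 farthest). Most of the neuronal sum was miR-9a-5p, with medians of 32171 RPM in amygdala and 31679 RPM in ventral striatum. The highest miR-181a-5p library, ventral striatum ethanol socially-enriched male 3 at 217165 RPM, had an oligodendrocyte sum of 14162 RPM. The highest amygdala library, ethanol non-enriched female 1 at 211478 RPM, had 13771 RPM, while the lowest, ethanol socially-enriched female 1 at 112316 RPM, had 5585 RPM.

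**Figure D5:**
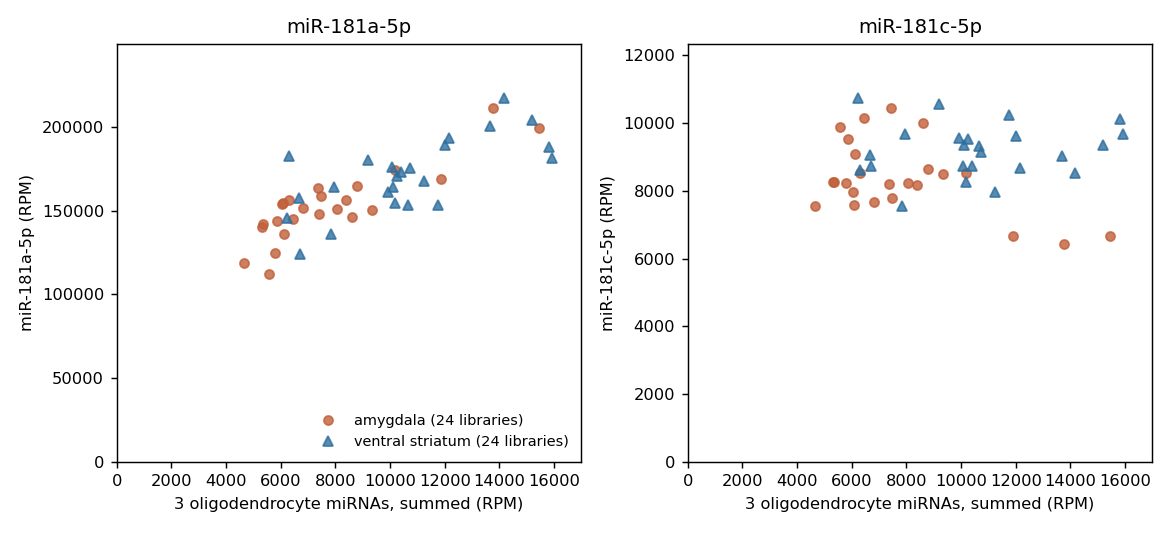
RPM of miR-181a-5p (left) and miR-181c-5p (right) against the summed RPM of 3 oligodendrocyte miRNAs, linear axes from 0, 1 point per library. miR-181a-5p is higher in libraries with a higher sum in both regions (r = 0.84 and 0.67 on log2 values), and miR-181c-5p shows no such relation in ventral striatum (r = 0.084).

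Of the miR-181 names that were not members, 6 were in the table. The precursor mir-181d was at 788 to 1320 RPM and miR-181c-3p at 115 to 255 RPM in all 48 libraries. The other 3p strands were at or near 0. miR-181b-1-3p had at most 8 reads, miR-181d-3p at most 2 and miR-181a-2-3p at most 1, above 0 in 39, 13 and 5 libraries, and miR-181b-2-3p was above 0 in 1 library. A value of 0 allows up to 3 reads, which is 2.19 to 8.26 RPM of the mature names.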

How the data were processed

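Small RNA was sequenced from pooled amygdala and ventral striatum RNA of rats, as TruSeq libraries read on a MiSeq. The authors trimmed low-quality bases, aligned reads with Bowtie to Rn5 and quantified miRBase names in Partek. They deposited a single table of normalized signal, described as RPM. How reads matching several names were divided, and tool versions, are not given in the sources used here. Mature and precursor values each sum to 1000000 per library. Since some values are not whole reads, no count test was run. Libraries were grouped by GEO's labels.

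Lines sharing a name were summed. log2(RPM + 1) values of names above 0 in at least 6 libraries were fitted with limma 3.58.1 (eBayes with trend, R 4.3.3), with a mean for each combination of sex, exposure and housing (and region, over 48 libraries). The fit within the middle band of the line share had a mean for each region only. That without the libraries rich in choroid plexus names had a mean for each region and sex. Tests were two-sided, with Benjamini-Hochberg adjustment over all names and a threshold of 0.05. Permutation tests, exact for 6 against 6 or 8 against 8 libraries and otherwise with 100000 resamples, used Python 3.11.15 and numpy 2.4.6. The fits were tested on simulated data. The names given were the members, every other miR-181 name, the most abundant mature names, those most and least like miR-181a-5p, and cell type names beside a result. Members and lists were chosen with earlier results of these data known.

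Replicate numbers were not taken to pair libraries within a region. Same-numbered libraries had a median correlation of deviations of -0.050 in amygdala (14 of 36 pairs over 0.1) and 0.044 in ventral striatum (17 of 36). For the 24 pairs of consecutive library numbers across regions it was 0.108, with 12 over 0.1, so that block was kept as an alternative. Alternatives changed the pseudocount, filter, scaling, moderation, block and libraries. Where the labels do not say that pools held separate animals, p-values measure the spread between pools. Sequences came from RefSeq (GRCr8), while the table was made on Rn5, so no coordinates are given.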

Additional observations from a re-analysis of the deposited data

Results flagged for a closer look

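In each of the 8 groups of 6 libraries, the highest and the lowest value of every member were compared with the rest of the group by Dixon's test, which picks out about 1 in 20 groups by chance. Of 80 groups, 5 held a value far from the others, all in amygdala. In the saline socially-enriched group, female 2 had 10010 RPM of miR-181c-5p, with the others at 7977 to 8634 RPM. The same library had 18355 RPM of the precursor mir-181c, with the others at 14445 to 15800 RPM. In the ethanol socially-enriched group, female 3 had 806 RPM of miR-181d-5p, with the others at 956 to 1032 RPM, and 4933 RPM of mir-181b-2, with the others at 2718 to 3510 RPM. In the ethanol non-enriched group, female 1 had 124429 RPM of mir-181a-2, with the others at 69402 to 89355 RPM, and was also the highest amygdala library for miR-181a-5p, at 211478 RPM, with an oligodendrocyte sum of 13771 RPM.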

How the results depend on the processing

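The number of members called between the regions, 4 with the deposited RPM, was 0 after median-ratio rescaling, 5 with the replicate block and 6 with consecutive library numbers as a block, the highest of any alternative, and 2 to 5 when each library was left out. Fits chosen after seeing the data gave 0 in the low and 1 in the middle band of the line share, 2 without the 8 amygdala libraries of fewest reads and 2 with hairpins summed. Of all 968 names, 225 were called after the rescaling and 291 with the replicate block. The share of all names was not counted with consecutive library numbers as a block, with each library left out or in the fits chosen after seeing the data. The count of ratios called, 2, was 3 within pairs of consecutive numbers, with mir-181b-1 over mir-181b-2 added. It was 2 in the low band, 0 in the middle band and 0 to 4 with each library left out. Both ratios called in the low band were hairpin ratios of the opposite sign, which the cut into bands itself held near 0. The count was 0 without ventral striatum ethanol socially-enriched male 2 and 4 without amygdala ethanol non-enriched female 1 or ethanol socially-enriched female 3. The region difference in the share of miR-181a-5p ran from 1.65 to 2.10 points with each library left out. Within pairs of consecutive library numbers it was 1.85 points. With the other most abundant mature names taken out of the denominator it was 3.10 points, which is a share of a smaller total. Counts for exposure, housing, sex and both kinds of interaction stayed at 0 under every alternative run, the replicate block and the band as a block included.

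Some log2 differences between regions changed sign. In the low band mir-181a-1 over mir-181a-2 was -0.029, mir-181b-1 over mir-181b-2 -0.067, mir-181c -0.021 and miR-181d-5p 0.055. In the middle band mir-181b-1 over mir-181b-2 was -0.053, miR-181a-5p over miR-181b-5p 0.027, miR-181a-5p over miR-181a-1-3p 0.10 and mir-181a-1 over mir-181b-1 0.056. Median-ratio rescaling gave -0.00044 for mir-181a-2 and -0.061 for mir-181c. miR-181d-5p was 0.032 with RPM taken outside the family, 1.44 RPM unlogged and 0.0016 without the 8 libraries of fewest reads, where mir-181c was -0.0012. mir-181c was -0.079 without the libraries rich in choroid plexus names. With each library left out, miR-181a-5p over miR-181c-5p ran from -0.0057 to 0.061, mir-181a-1 over mir-181b-1 from -0.018 to 0.0077 and miR-181d-5p from -0.027 to 0.017. The cause of these shifts was not tested.

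For miR-181a-5p in amygdala, ethanol against saline ran from -0.0079 to 0.11 in non-enriched and from -0.14 to 0.066 in enriched rats, and housing in ethanol rats from -0.13 to 0.081. In ventral striatum housing ran from -0.050 to 0.10 in saline and from -0.025 to 0.12 in ethanol rats. Depth limits miR-181a-1-3p most.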
